A study of Penaeus vannamei with 6 samples.

Results

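In the gill of juvenile Penaeus vannamei, the whiteleg shrimp, 25 transcripts stood highest in brackish water. They were chosen by their measured level in RPKM, a read number divided by transcript length and by the reads of the whole library. A transcript was taken when its mean over the 6 libraries was at least 5 RPKM and the lower brackish water library was at least 2 times the highest of the seawater and fresh water libraries. Of 341828 assembled transcripts 8912 reached that mean, and 25 of these, or 0.281%, met both limits. The 25 came from 18 assembly components, a component being a set of transcripts that the assembler built from shared sequence. Every comparison of brackish water with the other groups below was therefore used in the choice and is a description with no test.

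The study compared the gills of juveniles cultured in seawater, in brackish water or in fresh water, by mRNA sequencing and a de novo assembly. Its design text speaks of triplicates, and 2 libraries of each group, 6 in all, were analysed here. No strain, salinity value, length of culture or number of animals per library is given in the sources used here, and whether a group's libraries stem from separate animals is not stated. Each p-value therefore rests on no more than the spread between these libraries, and that spread may be technical. In limma the spread of a transcript is drawn toward that of other transcripts of like level, so a p-value need not follow the transcript's own libraries.

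The gill of a penaeid shrimp is a thin, cuticle-lined epithelium through which the animal takes up or sheds ions, exchanges gases and excretes ammonia. Shrimp that live across salinities hold the salt content of their haemolymph apart from that of the water, and the sodium-potassium pump of the gill epithelium drives much of this ion transport. Haemocytes, cuticle-forming cells and muscle also lie in or near the gill, so whole gill RNA mixes several cell types. In such bulk RNA fewer cells of a type and less RNA per cell cannot be told apart. The files pair the assembly's IDs with no gene name, and 0 of the IDs occur in the RefSeq gene table for the species, so no role is given to any transcript, and gill markers and markers of other cell types were not checked. The transcripts are numbered 1 to 25 here by falling mean RPKM, and an ID is printed for 7 of them.

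The shallowest library, seawater library 1, held 16500257 reads and the deepest, brackish water library 1, held 37027007. The brackish water pair was uneven in breadth. Library 1 held reads for 203824 transcripts and library 2 for 61478. The seawater pair held reads for 55464 and 72650 transcripts and the fresh water pair for 207274 and 213853. In breadth brackish water library 1 was thus near fresh water and library 2 near seawater. The 10 transcripts with most reads took 14.0% of brackish water library 1 and 41.2% of library 2, against 9.63% to 16.3% in the other 4 libraries. For that reason each brackish water value is given by library. In 24 of the 25 transcripts library 1 was the lower of the pair and set the ratio in the rule, so that ratio did not rest on library 2. With library 2 left out, 18 of the 25 still met the rule and the other 7, numbers 19 to 25, fell below its mean of 5 RPKM, while 117 transcripts met it in all. With library 1 left out, 21 of the 25 still met it and 132 did in all.

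The rule found fewer transcripts for brackish water than for either other group. It asks for a high value in both libraries, and the brackish water pair was the least alike in breadth. With brackish water library 1 or 2 left out, 132 or 117 transcripts met it. Fewer values are then asked to be high, and no such count was made with seawater or fresh water as the high group. Whether the uneven pair bears on the count was not tested. With both libraries of each group in use, the same rule with seawater as the high group found 147 transcripts, 1.65% of the 8912. With fresh water it found 181, or 2.03%. The brackish water set was the more abundant one. Its median level over the libraries was 448 RPKM, against 17.2 RPKM for the seawater set, 9.83 for the fresh water set and 12.1 for all 8912 transcripts. A mean of 1000 RPKM or more was reached by 10 of the 25, by 1 of the 147, by 3 of the 181 and by 110 of the 8912. No test was made of these differences, since the sets were chosen on the same values.

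Abundant transcripts of 5 components made up most of the signal. These components, chosen after the values were seen because at least 1 of the 25 in each had a mean of 1000 RPKM or more, held 12 of the 25 transcripts, numbers 1 to 11 and 13. The transcript comp249497_c1_seq5, number 1, is 2432 bases long. Its brackish water pair read 6622 and 21070 RPKM, its seawater pair 1702 and 1386 and its fresh water pair 1649 and 520, with library 1 before library 2 here and below. Both brackish water libraries were above all 4 others, and brackish water library 2 stood far above library 1. The brackish water mean was 13846 ± 10216 RPKM (SD, n = 2), the seawater mean 1544 ± 224 and the fresh water mean 1085 ± 798, a ratio of 8.97 between the brackish water and seawater means. In brackish water the SD was of the same order as the mean.

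The transcript comp248394_c6_seq3, number 2 and the longest of the 25 at 3591 bases, followed the same order. Its brackish water pair read 5659 and 18812 RPKM, its seawater pair 1539 and 1490 and its fresh water pair 1753 and 901. Seawater library 1 and fresh water library 1 lay close together, and fresh water library 2 was the lowest of the 6. Its brackish water mean was 8.08 times its seawater mean. The lower brackish water value was 3.23 times the highest other value, with a counting interval of 3.21 to 3.24 (exact binomial, 95%). Such intervals cover counting error only, and the PCR reads behind them are not independent molecules.

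**Figure D1:**
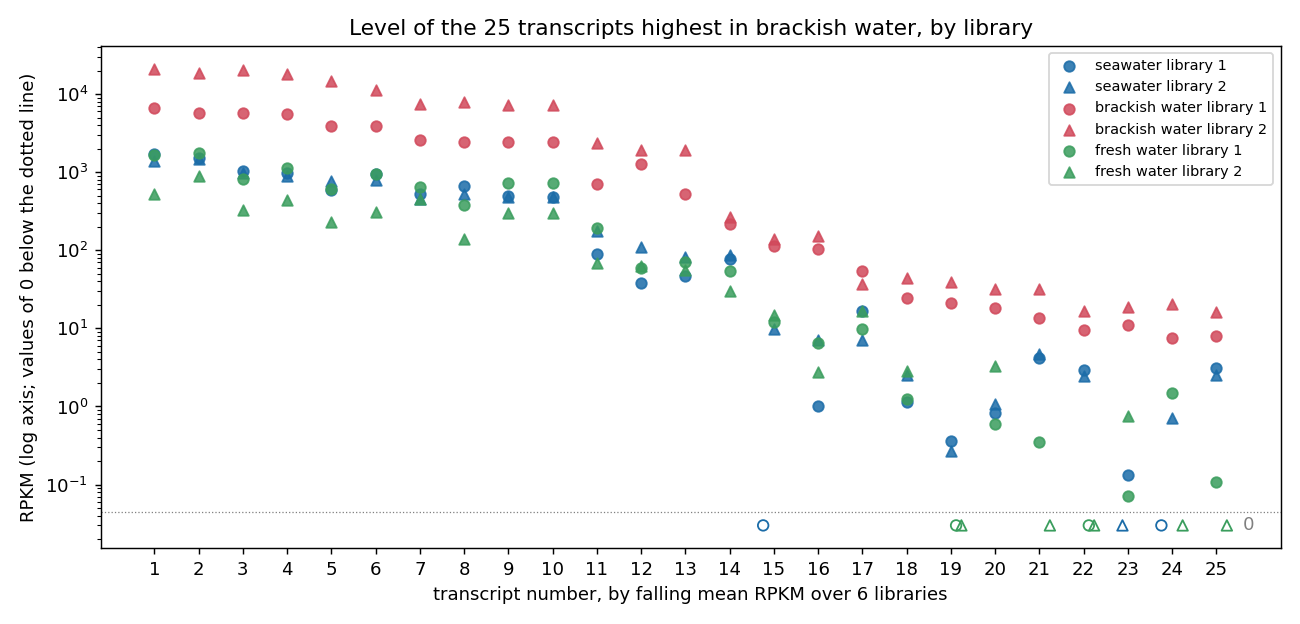
RPKM (log axis) of each of the 25 transcripts in each of the 6 libraries, with transcripts ordered by falling mean, circles for library 1, triangles for library 2 and open symbols for values of 0. Both brackish water libraries (red) lie above the other 4 in all 25, and library 2 is the higher of the pair in 24.

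In the other 10 transcripts of these components the brackish water pair again led, with library 2 above library 1. Number 3, of 1587 bases and from the component of number 2, read 5709 and 20568 RPKM in the brackish water pair against 1039 and 976 in the seawater pair and 829 and 327 in the fresh water pair. Number 5, of 321 bases and also from that component, read 3894 and 14574 RPKM against 583 and 763 in the seawater pair and 613 and 233 in the fresh water pair. The shortest and the longest of the 12 thus lie in 1 component and share their order of groups.

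Number 4, of 2596 bases and the only transcript of its component, read 5575 and 18159 RPKM in the brackish water pair against 979 and 885 in the seawater pair and 1127 and 435 in the fresh water pair. Number 7, of 1498 bases and alone among the 25 in its component, read 2551 and 7511 RPKM against 520 and 458 in the seawater pair and 644 and 454 in the fresh water pair. Its fresh water libraries lay closer together than those of any other of numbers 1 to 10, and overlapped its seawater libraries. Number 8, of 1147 bases, read 2468 and 7955 RPKM against 665 and 524 in the seawater pair and 375 and 141 in the fresh water pair, so that both fresh water libraries lay below seawater.

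The component of number 1 held 3 more of the 25, at lower levels. Number 6, of 1507 bases, read 3871 and 11251 RPKM in the brackish water pair against 938 and 787 in the seawater pair and 939 and 309 in the fresh water pair. Number 11, of 1293 bases, read 715 and 2350 RPKM against 90.0 and 179 in the seawater pair and 193 and 67.7 in the fresh water pair. Number 13, the longest of the component at 2897 bases, read 526 and 1906 RPKM against 47.3 and 82.9 in the seawater pair and 71.7 and 55.9 in the fresh water pair. In numbers 11 and 13 seawater library 2 lay above library 1, the reverse of numbers 1 and 6. Among the 12, fresh water library 2 was the lowest library in 11, and seawater library 1 in number 13.

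Ratios within the 12 were narrow. Brackish water library 1 stood at 3.74 to 8.09 times the seawater mean, with a median of 5.14, and library 2 at 12.4 to 29.3 times, with a median of 15.2. The ratio of brackish water library 2 to library 1 lay between 2.91 and 3.74 in all 12. In fresh water the ratio of library 2 to library 1 was below 1 in all 12, with a median of 0.390, and in seawater it had a median of 0.952. Forms of one component share sequence, so their reads may be split between them. Numbers 9 and 10, of 819 and 824 bases in one component, had nearly the same value in every library, with 2443 and 2431 RPKM in brackish water library 1 and 7270 and 7223 in library 2, so the 12 are not 12 separate measurements.

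The 25 transcripts took 8.17% and 26.3% of all reads in the brackish water pair, 1.83% and 1.68% in the seawater pair and 1.94% and 0.840% in the fresh water pair. Nearly all of this was the 12, with 8.01% and 26.1% of the brackish water reads. Among the 10 transcripts of highest RPKM in each library, 6 were among the 25 in brackish water library 1 and 6 in library 2, and none in the seawater or fresh water libraries. Among the 10 with most reads, 3 were among the 25 in brackish water library 1, 5 in library 2 and 1 in fresh water library 1. By reads none were in the seawater libraries or fresh water library 2. Number 1 ranked 2 by RPKM in both brackish water libraries, against ranks of 84 and 104 for the seawater pair and 30 and 172 for the fresh water pair. RPKM is relative to all reads of its library, these included.

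**Figure D2:**
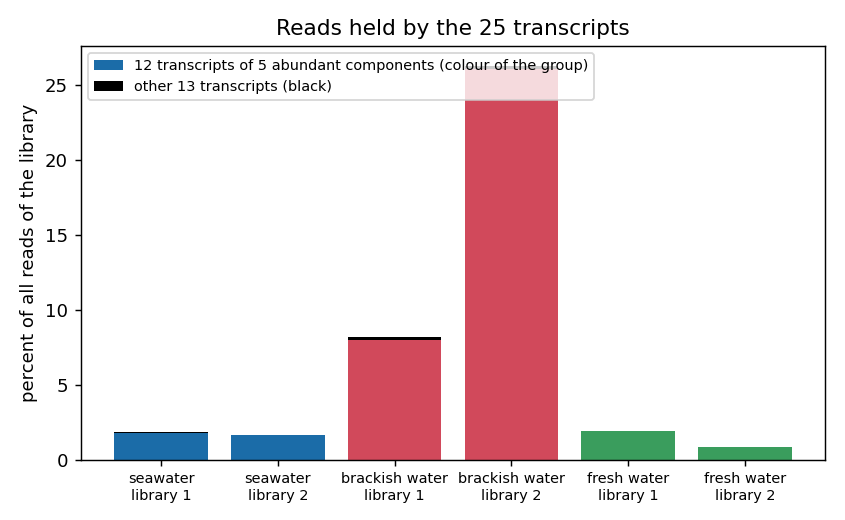
Percent of all reads of each library held by the 25 transcripts, stacked as the 12 of the 5 abundant components (colour of the group) and the other 13 (black). The share is 8.17% and 26.3% in the brackish water libraries and at most 1.94% in the other 4.

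The other 13 transcripts, each from a component of its own, were shorter and mostly of low level. Their median length was 339 bases against 1502.5 for the 12, and their median level over the libraries 10.2 RPKM against 2519. Number 12, of 745 bases, was the most abundant of them. It read 1277 and 1940 RPKM in the brackish water pair against 38.6 and 111 in the seawater pair and 58.9 and 63.0 in the fresh water pair, so its lower brackish water value was 11.5 times the highest other one. Number 14, of 2072 bases, lay nearer the limit. It read 216 and 266 RPKM against 77.7 and 87.6 in the seawater pair and 53.5 and 29.8 in the fresh water pair, a ratio of 2.47.

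The brackish water libraries lay closer together in these 13. Library 2 was 0.682 to 2.79 times library 1, with a median of 1.73, below the whole range of the 12. In the transcript comp152470_c0_seq1, number 15 and of 207 bases, the brackish water pair read 114 and 137 RPKM, the seawater pair 0 and 9.77 and the fresh water pair 12.2 and 15.0. Its 0 in seawater library 1 was a count of 0, which allows up to 0.878 RPKM at that depth (3 reads). Number 17, of 401 bases, was the only one of the 25 with library 2 below library 1, at 55.0 and 37.5 RPKM. Its seawater pair read 16.8 and 7.15 RPKM and its fresh water pair 9.76 and 16.6.

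Over all 8912 transcripts the pair differed the other way. Library 2 exceeded library 1 in 18.1% of them, with a median ratio of 0.302 over the 8748 that had reads in library 1, against 24 of the 25 and a median of 2.79. The rule asks for a high value in both libraries and fixes no order between them, but it was applied to these same values, and the difference in breadth between the libraries was not tested as a source of it.

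**Figure D3:**
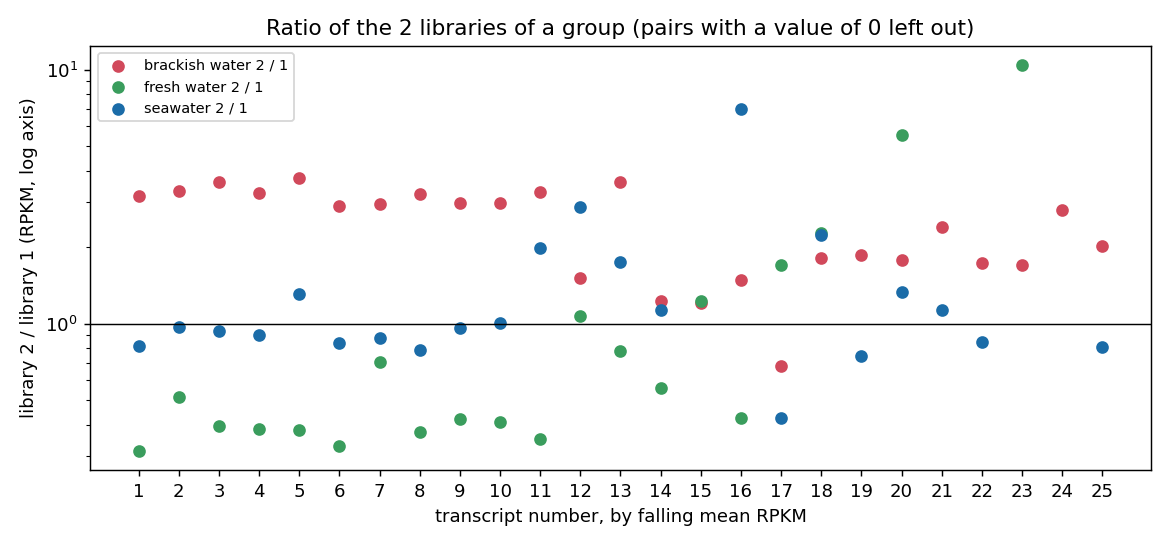
Ratio of library 2 to library 1 (RPKM, log axis) within brackish water (red), fresh water (green) and seawater (blue) for each of the 25 transcripts, leaving out pairs with a value of 0. For brackish water it lies between 2.91 and 3.74 in the 12 transcripts of the abundant components and between 0.682 and 2.79 in the other 13.

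The widest margin was found at a low level. The transcript comp218033_c0_seq1, number 19 and of 339 bases, read 21.1 and 39.3 RPKM in the brackish water pair, 0.358 and 0.267 in the seawater pair and 0 in both fresh water libraries. Behind these stood 265 and 471 brackish water reads, 2 and 3 seawater reads and no fresh water read. Its lower brackish water value was 59.0 times the highest other one, with a counting interval of 16.2 to 490 (exact binomial, 95%). Taking 3 reads per library as the floor, its brackish water mean of 30.2 ± 12.9 RPKM (SD, n = 2) was at least 89.5-fold higher than fresh water.

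The transcript comp149496_c0_seq1, number 16 and of 355 bases, had the next widest margin on log2(RPKM + 1). Its brackish water pair read 104 and 154 RPKM, its seawater pair 1.02 and 7.14 and its fresh water pair 6.54 and 2.79. Its lower brackish water value was 14.5 times the highest other one, with a counting interval of 11.6 to 18.3. Number 23, of 463 bases, held 191 and 310 brackish water reads, 1 and 0 seawater reads and 1 and 8 fresh water reads, a ratio of RPKM of 15.0 with an interval of 7.44 to 35.1. In numbers 19, 16 and 23 library 2 of brackish water was 1.86, 1.48 and 1.70 times library 1.

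Numbers 18, 20 and 24, of 214, 223 and 294 bases, also stood low outside brackish water. Number 18 read 24.4 and 44.3 RPKM in the brackish water pair against 1.13 and 2.54 in the seawater pair and 1.24 and 2.82 in the fresh water pair. Number 20 read 18.0 and 32.2 RPKM against 0.815 and 1.08 in the seawater pair and 0.595 and 3.29 in the fresh water pair. Number 24 read 7.44 and 20.8 RPKM against 0 and 0.719 in the seawater pair and 1.47 and 0 in the fresh water pair. Their ratios were 8.64, 5.49 and 5.07, and no library outside brackish water held more than 18 of their reads.

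Few reads lay behind some of the low levels outside brackish water. Number 25, of 308 bases, read 8.07 and 16.3 RPKM in the brackish water pair against 3.15 and 2.55 in the seawater pair and 0.108 and 0 in the fresh water pair. Behind these stood 92 and 178 brackish water reads, 16 and 26 seawater reads, and 1 and 0 fresh water reads.

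At the limit of the ratio, the lowest values inside it were 2.23, 2.47 and 2.56, and the highest outside it were 1.95, 1.93 and 1.89, the last 2 from 1 component. At the limit of the mean, the lowest inside were 5.04, 5.07 and 5.17 RPKM, and the highest outside that met the ratio were 4.77, 4.17 and 4.02 RPKM. Both brackish water libraries lay above all 4 others in 57 of the 8912 transcripts, or 0.640%, the 25 included. The median ratio of the lower brackish water value to the highest other value over the 8912 was 0.195, against 4.12 in the 25.

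**Figure D4:**
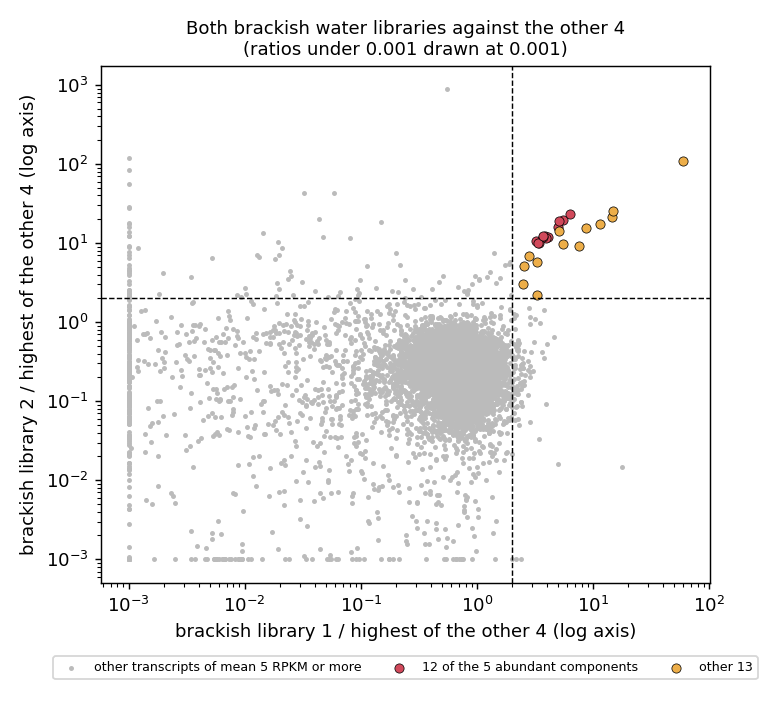
Brackish water library 1 (horizontal) and library 2 (vertical), each divided by the highest of the 4 seawater and fresh water values (log axes), for the 8912 transcripts of 5 RPKM or more on average, with ratios under 0.001 drawn at 0.001. Dashed lines mark the limit of 2, and the 25 transcripts lie in the upper right corner, with lower-library ratios of 2.23 to 59.0.

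The scaling of the libraries moved these ratios, but brackish water stayed the highest group. The order of fresh water and seawater did shift with scaling, as given below. With RPKM divided by TMM factors, a scaling to a common middle set of transcripts, both brackish water libraries stayed above the other 4 in all 25, with ratios of 1.09 to 25.1, and 16 of the 25 kept a ratio of at least 2. Numbers 1, 2, 6 and 8 of the abundant components were among the 9 below it. The factors were 1.54 and 0.391 for brackish water libraries 1 and 2, 0.655 and 0.874 for the seawater pair and 1.55 and 1.87 for the fresh water pair. Dividing by them lowers brackish water library 1 and both fresh water libraries, and raises brackish water library 2 and both seawater libraries. With quantile normalization both brackish water libraries also stayed above the other 4 in all 25, with ratios of 1.21 to 25.3, of which 22 were at least 2.

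Other forms of the same components were compared with the 25. Of the 18 components 6 had only 1 transcript, and the other 12 held 24 further forms, of which 7 averaged 5 RPKM or more. The brackish water libraries lay above all 4 others in 1 of these 7. That form, of 556 bases in the component of numbers 8 to 10, read 993 and 3054 RPKM in the brackish water pair against 295 and 270 in the seawater pair and 573 and 237 in the fresh water pair, a ratio of 1.73. The other 6 had ratios of 0.145 to 0.487. The rule had left out any form with a ratio of at least 2, so their low ratios follow in part from the choice.

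When read shares were summed over each component, the lower brackish water library was at least 2 times the highest other library in 15 of the 18 components. In the 5 abundant components these ratios were 3.69 to 4.95. For the component of number 19 the ratio was 4.23, against 59.0 for number 19 itself, and another form held all of the component's reads in fresh water library 2. In the remaining 3 components, those of numbers 17, 22 and 25, the summed ratio was 0.347, 0.423 and 0.205, and other forms together held more reads than the chosen one in every library with reads. Number 25 held 0.206% and 0.163% of its component's brackish water reads and 0.0165% and 0.0249% of its seawater reads. Its component was led by another form of 1292 bases, reading 929 and 2379 RPKM in the brackish water pair against 4541 and 2441 in the seawater pair and 2441 and 0.567 in the fresh water pair. Number 22 held 36.8% and 32.1% of its component's reads in brackish water against 4.72% and 7.49% in seawater.

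Fresh water against seawater is the one comparison of groups whose direction the rule did not use. The rule caps the values of both alike, which limits how high either can stand in the 25. All 25 entered the limma test on log2(RPKM + 1), run over 25901 transcripts averaging 1 RPKM or more over the 6 libraries. None of the 25 passed at a limma adjusted p of 0.05, while 3.67% of all tested transcripts did (3.05% higher and 0.625% lower in fresh water). The mean of that filter includes brackish water. Numbers 19, 23 and 24 averaged under 1 RPKM in seawater and in fresh water, so they entered the test through brackish water. For them the shares of all tested transcripts are not a like comparison. For the rest of the 25 the cap limits that comparison too, and the brackish water pair enters the spread of the main fit. At an unadjusted p under 0.05 by limma stood 6 of the 25, against 27.3% of all tested. On recovered reads edgeR called 0 of the 25 and 0 of the 43835 transcripts it tested, and DESeq2 called 3 of the 25, all lower in fresh water, against 6.62% of all it tested (2.43% lower). The median log2 fold change of the 25 was -0.15 on log2(RPKM + 1), with 9 above and 16 below 0, against 0.89 over all tested transcripts and -0.75 over the 110 of 1000 RPKM or more. With TMM factors these medians were -1.25 for the 25 and 0.08 for all tested. The fresh water libraries held reads for far more transcripts than the seawater libraries, as given above. Whether that difference bears on the shares and medians here and below was not tested.

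Groups overlapped in most of the 25. The fresh water libraries were both below the seawater libraries in 7 and both above in 1, against 19.4% below and 51.7% above among the 8912 transcripts of 5 RPKM or more. Numbers 16 and 18 to 25 averaged under 5 RPKM in seawater and in fresh water, so they reached that mean through brackish water. Number 19 was among the 7 on 2 and 3 seawater reads against 0 in fresh water. Among the 110 most abundant the shares were 59.1% below and 5.45% above. In the 12 transcripts of the abundant components the log2 fold changes lay between -1.36 and 0.15, and 2 of the 12 had groups that did not overlap, both lower in fresh water. For comp249497_c1_seq5 the value was -0.73 (standard error 0.44, limma adjusted p = 0.277, alternatives from 0.0702 to 0.974). For comp248394_c6_seq3 the value was -0.27 (standard error 0.39, limma adjusted p = 0.673, alternatives from 0.328 to 0.949). Both values turned sign without fresh water library 2, to 0.10 and 0.21, and with quantile normalization, to 0.071 and 0.48.

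**Figure D5:**
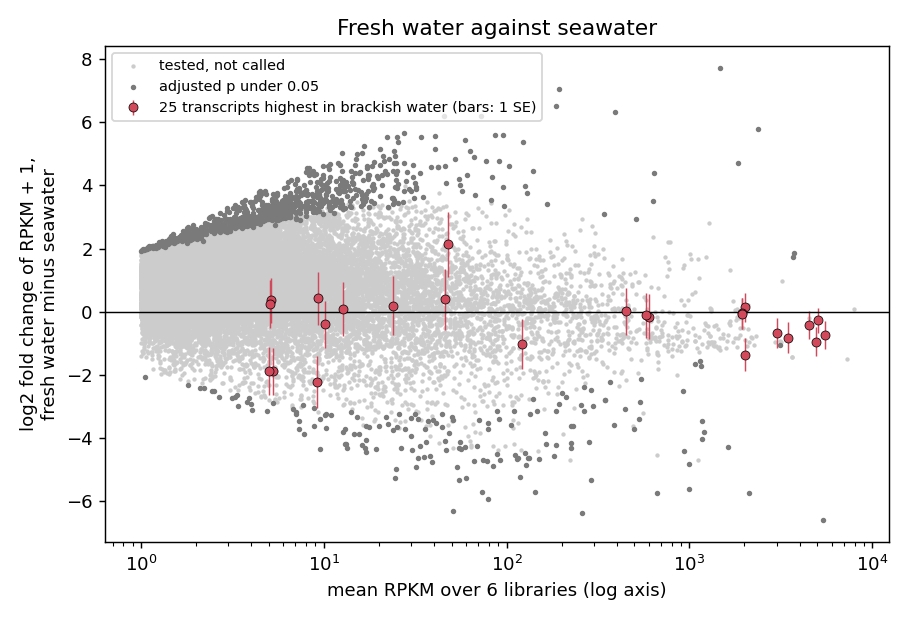
Log2 fold change of RPKM + 1 in fresh water minus seawater against mean RPKM (log axis) for 25901 tested transcripts, with called ones in dark grey and the 25 transcripts in red with bars of 1 standard error. The 25 lie between -2.22 and 2.15 and none of them is called.

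Numbers 21, 22 and 25 had the lowest adjusted p-values among the 13 outside the abundant components. In comp210660_c0_seq1, number 21 and of 569 bases, the brackish water pair read 13.4 and 32.2 RPKM, the seawater pair 4.15 and 4.72 and the fresh water pair 0.350 and 0. The seawater pair held 39 and 89 reads and the fresh water pair 6 and 0. The log2 fold change on log2(RPKM + 1) was -2.22 (standard error 0.83, limma adjusted p = 0.0960, alternatives from 0.00132 to 0.913). In comp242772_c1_seq3, number 22 and of 207 bases, the brackish water pair read 9.65 and 16.7 RPKM, the seawater pair 2.93 and 2.48 and both fresh water libraries 0. Seawater was at least 4.89-fold higher than fresh water, with 3 reads per library as the floor, and the limma adjusted p was 0.117, with alternatives from 0.00189 to 0.913. For number 25 the value was -1.87 (standard error 0.76, limma adjusted p = 0.121). The lowest limma adjusted p among its alternatives was 2.07e-16, on the sum of its component, which another form led. In the fresh water pair that form read 2441 and 0.567 RPKM, with library 1 level with seawater library 2. This p-value thus does not follow the spread of the component's own libraries, and nothing is concluded from it.

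These 3 passed the threshold when the seawater and fresh water libraries were fitted alone, at a limma adjusted p of 0.0118 each, and so did no other of the 25. The means and the spread of that fit use no brackish water value, but its filter of 1 RPKM still averages all 6 libraries. That filter let in numbers 19, 23 and 24 through brackish water here too. In that fit 10368 of the 25901 transcripts, or 40.0%, were called, 3.02% of all as lower in fresh water. The same 3 passed without brackish water library 1, where limma called 40.4% of all (2.96% lower), and with library 2 of that pair left out, where it called 39.8% (3.16% lower). They also passed with a pseudocount of 0.1, where it called 3.83% (0.583% lower), and by DESeq2. Number 8 passed in 1 setting, without seawater library 2, where limma called 1.86% of all (1.08% lower). On component sums 1 of the 18 components passed, that of number 25 with its abundant other form, while limma called 8.35% of all components (0.940% lower). That form read 4541 and 2441 RPKM in the seawater pair against 2441 and 0.567 in the fresh water pair. Fresh water library 1 thus lay level with seawater library 2, and only fresh water library 2 was far below. Whether the component passes without that library was not tested.

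The only transcript with both fresh water libraries above both seawater libraries was comp152470_c0_seq1, whose values are given above. Its fresh water value was higher by 2.15 on log2(RPKM + 1) (standard error 1.03, limma adjusted p = 0.178, alternatives from 0.0669 to 0.913). Without seawater library 1, which held 0 of its reads, it was 0.43.

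For brackish water and seawater, the authors' deposited table lists all 25 and marks 4 as significant, against 1.65% of the 221076 transcripts it lists. The 25 were chosen on these same values, so these shares are not a like comparison. The marked ones were numbers 12, 14, 15 and 16, whose brackish water libraries differed by 1.20 to 1.52 times. Number 17, with library 2 at 0.682 times library 1, was not marked. For comp152470_c0_seq1 the authors' deposited table gives a log2 fold change of 4.69 and an unadjusted p of 0.0107, and for comp249497_c1_seq5 it gives 3.16 and 0.338. For fresh water and seawater, the authors' deposited table lists 4 of the 25, numbers 19, 21, 22 and 25, all marked and all lower in fresh water. That table marks 98.1% of the 55575 transcripts it lists. The authors' deposited table has log2 fold changes of -4.67 for comp210660_c0_seq1 and -8.08 for comp242772_c1_seq3, the latter computed with 0.01 RPKM in place of its fresh water mean of 0. For number 19 only 2 and 3 seawater reads stood behind the mark.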

How the data were processed

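Gill mRNA libraries of seawater, brackish water and fresh water cultured juveniles, 2 of each, were grouped and numbered by the submitters' labels. The authors deposited RPKM per library, per the file headers, and mean read counts per group, as estimated counts, with a log2 fold change of mean RPKM and an unadjusted p-value in 2 tables of comparisons. The sources used here name no assembler, aligner or counting tool.

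Whole reads were recovered from RPKM times length for 100% of values above 0 (tolerance 0.1 read), and their group means equalled 100% of the deposited mean counts. Libraries of a group differed far beyond counting noise (chi-square per transcript of 471 for brackish water, 345 for seawater and 49.2 for fresh water, from transcripts of 20 reads or more), so none was treated as a duplicate. At 1 kilobase, 1 read equals 0.0270 to 0.0606 RPKM by library.

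The test was limma-trend (limma 3.58.1) of log2(RPKM + 1) over the 25901 transcripts averaging 1 RPKM or more, fitted to all 6 libraries with a term for group, and p-values were adjusted over all of them by Benjamini-Hochberg at a threshold of 0.05. Fold changes on that scale understate changes of low transcripts. Alternatives were other scalings, filters, pseudocounts and libraries, sums per component, a replicate block, and edgeR 4.0.16 and DESeq2 1.42.0 on recovered reads. The main limma fit, edgeR with TMM and DESeq2 were also run on simulated reads. Those had a fixed dispersion and no difference in breadth between libraries, so they cannot show how the tests perform on these pairs. IDs were printed for the 2 transcripts of widest margin on log2(RPKM + 1), the 2 of highest mean and, in fresh water against seawater, up to 2 per direction whose groups did not overlap, with the largest change. The transcripts, rules and alternatives were chosen with earlier results of these data known.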

Additional observations from a re-analysis of the deposited data

How the results depend on the processing

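The number of transcripts meeting the rule was 25. It stayed within 19 to 35 under other scalings, ratio limits of 1.5 and 3 and a mean limit of 10 RPKM. The transcripts themselves changed with scaling. Of the 35 that met the rule with TMM factors 16 were among the 25, and the rest were other transcripts. With quantile normalization 22 of 34 were among the 25. The number was 47 with a mean limit of 1 RPKM and 11 on component sums, all 11 among the 18 components. Leaving out 1 library gave 30 to 132. In fresh water against seawater the 951 called transcripts became 991 with a pseudocount of 0.1, 0 with quantile normalization (7427 at an unadjusted p under 0.05), 0 with TMM factors (8405), 0 with a filter of 0.1 RPKM (54187), 3 with no filter, 10368 with the 2 groups alone, 1572 on component sums, 0 by edgeR with TMM (14193) or with DESeq2 size factors (14307), 6269 by DESeq2, and 12 to 10463 with 1 library left out. The replicate block gave 531 calls and 0 among the 25. Deviations of same-numbered libraries correlated across transcripts at 0.27 between seawater and fresh water, -0.46 between seawater and brackish water and -0.41 between brackish and fresh water, so the numbers were not taken as pairs. Of the 25, 0 were called, and 3 with a pseudocount of 0.1, with the 2 groups alone and by DESeq2, 1 of 18 components on sums (that of number 25, against 8.35% of all), and 0 to 3 with 1 library left out, where number 8 alone passed without seawater library 2 (1.86% of all). Their median log2 fold change lay between -0.69 and 0.011 with 1 library left out, above 0 only without fresh water library 2, and between -1.42 and -1.25 with TMM factors, by edgeR and by DESeq2. Fits with 1 library left in a group assume that it varies like the other groups. With quantile normalization comp249497_c1_seq5 stood at 0.071 and comp248394_c6_seq3 at 0.48, and without 1 library they ranged from -1.56 to 0.10 and from -0.75 to 0.21. The causes of these shifts were not tested. Values of a few reads limit the lowest transcripts.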
